A study of Oryctolagus cuniculus with 15 samples.

Results

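Rabbit corneal keratocytes embedded within a fibrillar collagen matrix (3DF) were compared with keratocytes plated on top of the same kind of matrix (2DF), by RNA-seq across all genes. The 3 libraries of 3DF and the 3 of 2DF were chosen by their labels, and they are 6 of the 15 libraries of the series. All cells were normal rabbit keratocytes (NRKs) of the 1st passage from New Zealand white rabbits, kept for 6 days in serum-free medium with no added growth factor, in or on polymerized type I bovine collagen. In 3DF each matrix held 100k cells. In 2DF the cells were seeded by area on the finished matrix, so the number of cells per matrix and of contacts between cells differed along with dimensionality between 3DF and 2DF. A further condition with 50k cells per matrix (3DF_50), nearer to 2DF in cells per matrix by the seeding density of the methods, and a collagen-coated dish (2DC) are given beside some genes. Each library was pooled from several matrices of 1 experiment, and the cells were released from the collagen with collagenase before RNA extraction in both conditions.

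Keratocytes are the resident cells of the corneal stroma, where they lie as a flat network between lamellae of collagen and keep the tissue transparent by maintaining thin, evenly spaced fibrils of type I and type V collagen coated with small leucine-rich proteoglycans. After injury they can turn into fibroblasts or contractile myofibroblasts, which lay down fibronectin, tenascin C and cross-linked collagen. Fibril formation depends on enzymes that hydroxylate, trim and cross-link procollagen, and cells sense the surrounding matrix through integrins, small GTPases of the cytoskeleton and the transcriptional co-activators YAP and TAZ.

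Between 16167154 and 17674886 reads were counted per 2DF library and between 18770056 and 24224540 per 3DF library. Correlations of log2 CPM were 0.974 to 0.990 between libraries of the same condition. 3DF replicate 1 stood apart, at a Euclidean distance in log2(FPKM + 1) of 51.3 and 47.3 from the other 3DF libraries, which lay 26.7 from each other, and at 64.3 to 68.5 from the 2DF libraries. The E numbers that open the library names are 5, 9 and 10 in 2DF and 6, 7 and 8 in 3DF. No number is shared, so whatever it marks and the condition cannot be told apart. The 18S ribosomal RNA gene RN18S was listed at 5045, 4219 and 932 FPKM in 2DF and at 78.0, 651 and 558 FPKM in 3DF, and its call rested on single libraries. It was lost without 2DF replicate 1 (log2 fold change -2.59, adjusted p = 0.16), without 2DF replicate 2 (-2.80, adjusted p = 0.14) and without 3DF replicate 3 (-3.22, adjusted p = 0.075).

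Of 13195 genes tested, 499 (3.78%) were differentially expressed genes (DEGs), defined by an adjusted p (Benjamini–Hochberg) no higher than 0.05 together with a change of 1 or more on the log2 scale. In 3DF 276 genes (2.09%) were higher and 223 (1.69%) were lower, and 58 of the DEGs had no symbol. A DEG was called in every one of 6 fits that each left out 1 library for 134 of the higher and 105 of the lower genes. Without 3DF replicate 1 there were 429 DEGs, 249 higher and 180 lower, of which 392 were DEGs in the same direction as with all libraries. The count of higher genes depended most on 2DF replicate 1, without which it was 166, beside 173 lower. The FPKM values of the 2 conditions did not overlap for 29.3% of the genes tested. The median log2 fold change over all genes tested was 0.01. In what follows, log2 fold changes are 3DF minus 2DF with their standard error (SE), replicate values are FPKM in the order of replicates 1, 2 and 3, and n = 3 libraries per condition.

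**Figure D1:**
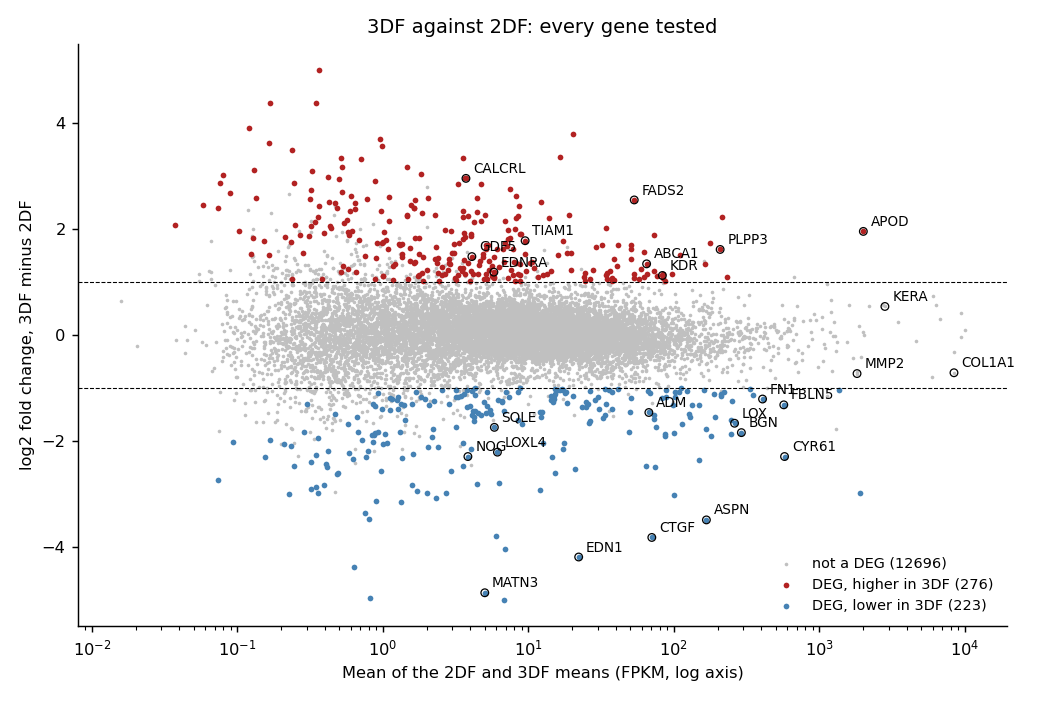
Log2 fold change (3DF minus 2DF) against level (mean of the means of the 2 conditions, FPKM, log axis) for each gene tested, with the 276 higher DEGs in red, the 223 lower DEGs in blue, other genes in grey and dashed lines at a log2 fold change of 1 and -1. ASPN, CTGF, CYR61 and EDN1 lie below the cloud and FADS2 and APOD above it, whereas the stromal genes KERA and COL1A1 lie between the dashed lines.

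Genes were grouped in 38 hand-written lists, and many of the lower genes belonged to the lists for the extracellular matrix. In matrix glycoproteins and elastic fibre 13 of 45 members tested were lower, in collagen processing and cross-linking 8 of 27 and in proteoglycans 7 of 29, against 1.69% of all genes. Some lists for signalling held DEGs in both directions, with 6 higher and 5 lower of 45 for TGF-beta and BMP and 4 higher and 2 lower of 28 for angiogenic and vasoactive factors, whereas cytokines and chemokines held 3 higher of 26 and none lower. S phase and mitosis (1 DEG of 34), Wnt signalling (1 of 37) and the unfolded protein and amino acid response (0 of 26) had shares near or below the 3.78% of all genes. In the unfolded protein list 2 members had an adjusted p under the threshold with a change under the fold limit.

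**Figure D2:**
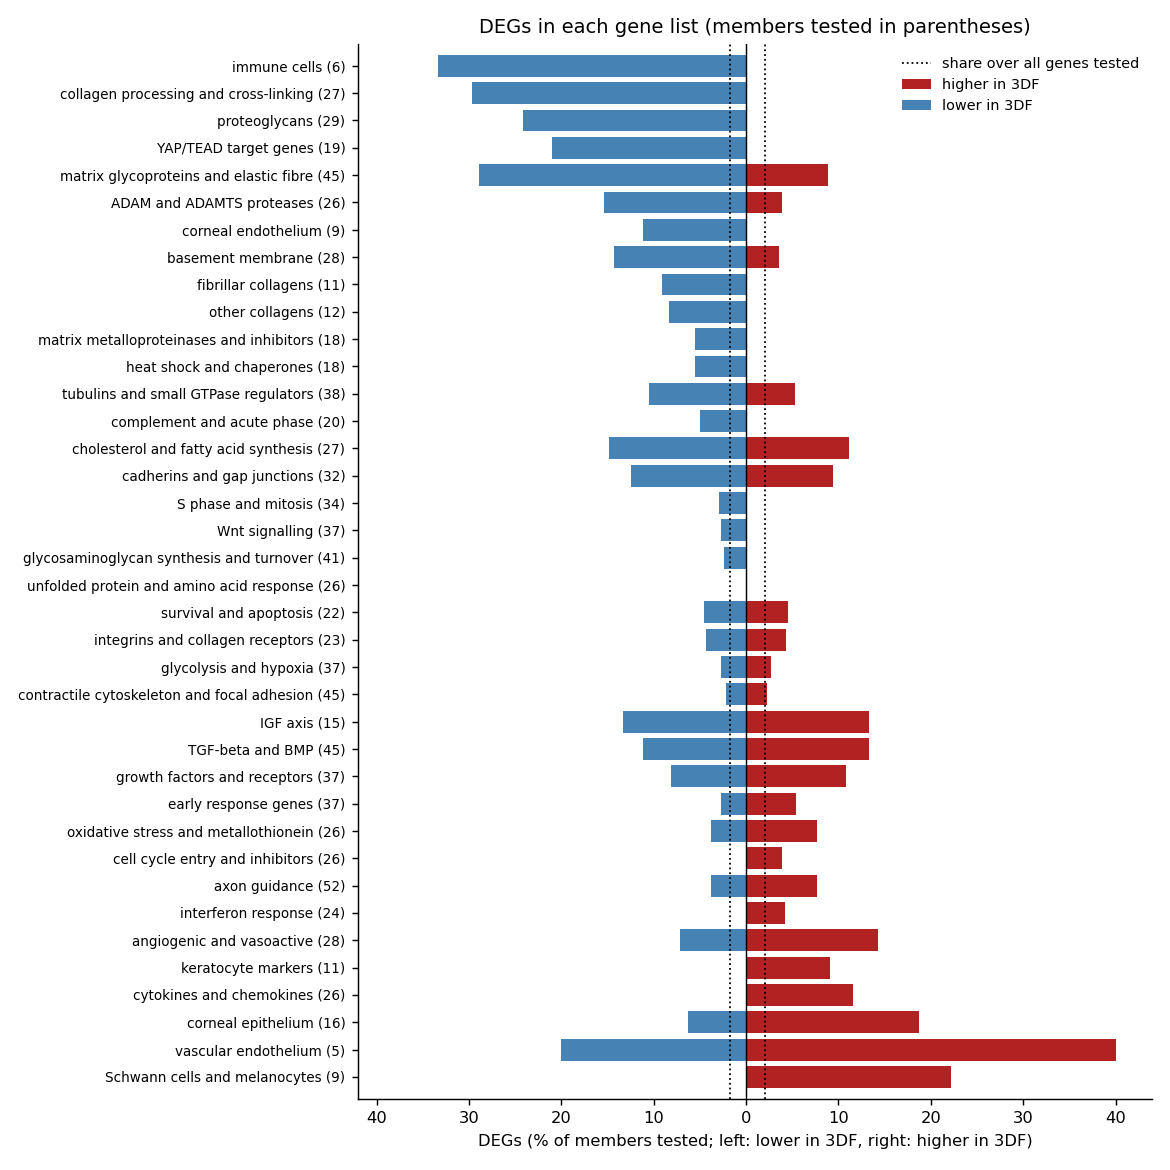
Share of the members tested that were DEGs in each of 38 gene lists (percent, blue bars to the left for lower in 3DF, red bars to the right for higher in 3DF), with the number of members tested in parentheses and dotted lines at the shares over all genes, 1.69% lower and 2.09% higher. The bars for proteoglycans and for collagen processing extend to the left alone, those for TGF-beta and BMP to both sides and that for cytokines and chemokines to the right alone, and lists with fewer than 10 members rest on 1 or 2 genes per bar segment.

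Markers of keratocytes were the most abundant of the cell type markers in both conditions. Their summed level was 23931 to 28265 FPKM in 2DF and 29619 to 43813 FPKM in 3DF, with 3DF replicate 1 the highest. Keratocan (KERA), a corneal keratan sulfate proteoglycan, was at 1915, 2631 and 2381 FPKM in 2DF and 4555, 2756 and 2706 FPKM in 3DF, and mimecan (OGN) was at 3359, 5363 and 4829.8 against 11823, 5556 and 5169. For both genes 3DF replicate 1 was far above the other 3DF libraries, which lay within or close to the range of 2DF, and neither passed the test (0.54 ± 0.25 SE, adjusted p = 0.237, and 0.74 ± 0.34 SE, adjusted p = 0.236). Of the 11 markers tested only CD34, a sialomucin of stromal progenitors and keratocytes, was a DEG. It rose from 68.3, 55.5 and 47.8 to 113, 119 and 115 FPKM (1.02 ± 0.15 SE, adjusted p = 0.00385), and its fold change was under the limit without 2DF replicate 3 (0.91) or without 3DF replicate 2 (0.99). The secreted angiopoietin-like protein ANGPTL7 of the same list went the other way, at 37.0, 66.2 and 52.8 FPKM in 2DF and 9.50, 31.5 and 16.7 FPKM in 3DF, without overlap (-1.43 ± 0.37 SE, adjusted p = 0.0513). ANGPTL7 passed the test without 3DF replicate 2 (-1.996, adjusted p = 0.00308) and with library size scaling (-1.36, adjusted p = 0.0408). It also passed with a replicate block (-1.56, adjusted p = 0.00456) and with 3DF_50 in place of 3DF (-1.74, adjusted p = 0.000178). ANGPTL7 did not pass with DESeq2 (-1.43, adjusted p = 0.0722) or with limma on log2(FPKM + 1) (-1.50, adjusted p = 0.0666). Nor did it pass in the other fits that left out a library (adjusted p from 0.0568 to 0.179). In 3DF_50 KERA was at 1764 ± 234 FPKM (SD, n = 3; -0.37 against 2DF, adjusted p = 0.194) and CD34 at 108 ± 6.58 FPKM.

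Markers of other cell types that a corneal dissection could carry over summed to lower levels than those of keratocytes, and some of them moved with the condition. Among 29 corneal epithelial markers found, 2 had no count in any 2DF or 3DF library. Their summed level was 19.4 to 30.2 FPKM in 2DF and 24.6 to 33.8 FPKM in 3DF, which overlap. Without CLDN1, the most abundant of them and a DEG that fell, the sum was 3.87 to 17.2 FPKM in 2DF and 20.3 to 29.8 FPKM in 3DF. The corneal keratin KRT12 was at 0, 1.26 and 0.25 FPKM in 2DF and 2.47, 4.40 and 3.72 FPKM in 3DF (adjusted p = 0.0592), and CRCT1, a small protein of cornified epithelia, rose from 0.287, 0.926 and 0.217 to 2.81, 2.61 and 2.49 FPKM (2.45 ± 0.49 SE, adjusted p = 0.0172). CRCT1 was not called without 2DF replicate 1 (2.19, adjusted p = 0.08) or 2DF replicate 3 (2.11, adjusted p = 0.062). Of 16 epithelial markers tested 3 were higher and 1 was lower, against 2.09% and 1.69% of all genes, and the median was 1.04. With 3DF_50 in place of 3DF, none of 8 tested was higher, 1 was lower and the median was -0.56. Over all 13201 genes tested in that fit, 190 were higher and 397 lower. The filter could keep a marker near 0 in 2DF through its counts in 3DF, so the markers tested differed between the 2 fits. The 2 medians therefore cannot be compared, and neither describes the epithelial list as a whole. The 19 immune markers summed to 11.3 to 17.5 FPKM in 2DF and 6.93 to 8.90 FPKM in 3DF. Without CD68, the most abundant, the sums were 6.47 to 10.1 FPKM and 4.70 to 7.16 FPKM, which overlap. Of 6 immune markers tested 2, CD68 and LAPTM5, were lower, against 1.69% of all genes, and 3 were above 0. The CD68 call was lost without 2DF replicate 1, 2DF replicate 2 or any 3DF replicate (adjusted p from 0.0561 to 0.168). LAPTM5 was lost without 2DF replicate 2, 2DF replicate 3 or 3DF replicate 3 (adjusted p from 0.0541 to 0.0936). In bulk RNA, fewer cells of a type and less RNA per cell cannot be told apart, and the part that these cells have in the results below was not tested. Schwann cell and melanocyte markers summed to 11.0 to 15.1 FPKM in 2DF and 17.1 to 23.4 FPKM in 3DF. Of 9 of them tested 2, DCT and NGFR, were higher, against 2.09% of all genes. A log2 fold change above 0 was found for 8, and the median was 0.58. The DCT call was lost without 2DF replicate 1, 2DF replicate 3 or 3DF replicate 1. Corneal endothelial markers, led by COL8A2, summed to 581 to 744 FPKM in 2DF and 340 to 416 FPKM in 3DF. Without COL8A2 the endothelial sums were 249 to 328 FPKM in 2DF and 246 to 259 FPKM in 3DF, and they overlapped.

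Of the fibrillar collagen genes only 1 was a DEG, and it was lower in 3D. All 11 fibrillar collagen genes tested had a log2 fold change below 0, with a median of -0.53 against 0.01 for all genes, although COL5A3 was above 0 without 2DF replicate 3 (0.28). The minor fibrillar collagen COL11A1, which copolymerizes with other fibril collagens, fell from 138, 145 and 239 to 58.2, 51.6 and 53.6 FPKM (-1.67 ± 0.22 SE, adjusted p = 0.00217). COL1A1, which encodes the main chain of stromal collagen, was at 7937, 10095 and 13406 FPKM in 2DF and 6092, 5733 and 7304 FPKM in 3DF. Its 2 conditions did not overlap, but the difference did not pass the adjusted test (-0.71 ± 0.26 SE, adjusted p = 0.15). In 3DF_50 the level of COL1A1 was lower still (3565 ± 270.1 FPKM, SD, n = 3), and in 2DC it was higher (17749 ± 3361 FPKM). With 3DF_50 in place of 3DF 5 of the 11 fibrillar collagen genes were lower DEGs, none was higher and the median was -1.27, beside 397 lower of 13201 genes tested.

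Several enzymes that finish and cross-link collagen were lower in 3D. Of 27 members tested 24 had a log2 fold change below 0, the median was -0.68, 8 were DEGs and all 8 were lower. Lysyl oxidases oxidize lysines so that neighbouring collagen and elastin molecules can be joined, and 4 of the 5 family members were DEGs. LOX fell from 379, 352 and 463 to 149, 111 and 115 FPKM (-1.66 ± 0.18 SE, adjusted p = 0.000998). LOXL1, which acts on elastin, fell from 332, 380.5 and 458 to 62.8, 138 and 118 FPKM (-1.88 ± 0.27 SE, adjusted p = 0.00314). LOXL2 (-1.19 ± 0.18 SE, adjusted p = 0.00391) and LOXL4 (-2.21 ± 0.24 SE, adjusted p = 0.000889) fell as well, and LOXL3 was at 17.2, 17.6 and 16.7 FPKM in 2DF and 11.1, 15.3 and 14.6 FPKM in 3DF (-0.32 ± 0.15 SE, adjusted p = 0.228). For each of the 4 lower members the conditions did not overlap, and the call held in every fit that left out 1 library.

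Prolyl 4-hydroxylases stabilize the collagen triple helix, and the subunit gene P4HA2 fell from 121, 116 and 132 to 51.4, 59.3 and 52.2 FPKM (-1.17 ± 0.13 SE, adjusted p = 0.00099). Further members had an adjusted p under the threshold with a change under the fold limit. These included the lysyl hydroxylases PLOD2 (-0.95 ± 0.21 SE, adjusted p = 0.0245) and PLOD3 (-0.71 ± 0.13 SE, adjusted p = 0.0123). Tolloid-like 1 (TLL1), a protease that can remove the C-propeptide of procollagen and was not in that list, went the other way. Its levels were 1.11, 0.719 and 0.693 FPKM in 2DF and 5.23, 6.68 and 7.59 FPKM in 3DF (2.95 ± 0.24 SE, adjusted p = 0.000482). The related protease BMP1 was at 58.9, 67.3 and 80.2 FPKM in 2DF and 60.0, 57.0 and 73.4 FPKM in 3DF (-0.11 ± 0.16 SE, adjusted p = 0.71).

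Elastic fibre and adhesive glycoprotein genes changed in both directions in 3D, with 13 lower and 4 higher DEGs of 45 and a median of -0.50. Matrilin 3 (MATN3), an adaptor protein of cartilage matrix, fell from 10.1, 6.39 and 12.7 to 0.429, 0.475 and 0.0591 FPKM (-4.86 ± 0.47 SE, adjusted p = 0.000612). Elastin (ELN) fell from 9.22, 8.59 and 21.3 to 0.163, 1.70 and 0.527 FPKM (-4.03 ± 0.62 SE, adjusted p = 0.00475), and fibulin 5 (FBLN5), which organizes elastic fibres, fell from 799.6, 726 and 917 to 300.4, 375 and 302 FPKM (-1.32 ± 0.17 SE, adjusted p = 0.00213). In 2DC elastin was at 0.583 ± 0.657 FPKM, so that among the conditions set side by side here its level was high in 2DF. Fibronectin (FN1), the main provisional matrix protein of wounds, fell from 473, 519 and 715 to 196, 284 and 258 FPKM (-1.21 ± 0.22 SE, adjusted p = 0.0107), and FNDC1 fell from 105, 95.8 and 126 to 14.1, 25.0 and 19.5 FPKM (-2.48 ± 0.21 SE, adjusted p = 0.000487). The higher glycoproteins included CTHRC1, a secreted protein linked to collagen turnover and Wnt signalling, which rose from 1.12, 2.75 and 1.92 to 12.4, 16.4 and 10.1 FPKM (2.75 ± 0.33 SE, adjusted p = 0.00146). CRISPLD1 (1.62 ± 0.17 SE, adjusted p = 0.000881) and SPARCL1, an anti-adhesive relative of SPARC (1.57 ± 0.20 SE, adjusted p = 0.00217), rose too. In 3DF_50 CTHRC1 was at 4.53 ± 3.35 FPKM and SPARCL1 at 48.0 ± 13.9 FPKM, between the means of 2DF and 3DF.

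Among proteoglycans, all 7 DEGs were lower in 3DF, while the median of the 29 members tested was 0.03, so that in 3DF the fall was restricted to some members of the list. With 3DF_50 in place of 3DF 10 of 28 members were lower, none was higher and the median was -0.73, beside 397 lower of 13201 genes tested. Biglycan (BGN), fibromodulin (FMOD) and asporin (ASPN) are small leucine-rich proteoglycans that bind collagen and TGF-beta. BGN fell from 467, 382 and 518 to 104, 139 and 138 FPKM (-1.84 ± 0.18 SE, adjusted p = 0.000636). FMOD fell from 220.3, 266 and 361 to 48.4, 109 and 68.8 FPKM (-1.90 ± 0.29 SE, adjusted p = 0.00431), and ASPN from 392, 98.3 and 433 to 27.5, 33.8 and 20.7 FPKM (-3.49 ± 0.47 SE, adjusted p = 0.00245). In each case the lowest 2DF library was above the highest 3DF library, although 2DF replicate 2 was well below the other 2DF libraries for ASPN. Chondroadherin (CHAD), a collagen-binding leucine-rich protein, fell by 1.33 on the log2 scale (SE 0.18, adjusted p = 0.00234). The corneal members of the same family, lumican (LUM, 0.10 ± 0.22 SE, adjusted p = 0.823) and decorin (DCN, 0.41 ± 0.21 SE, adjusted p = 0.291), did not pass the test and were at 8738, 9475 and 10712 FPKM (LUM) and 7639, 8296 and 8171 FPKM (DCN) in 2DF. Genes for glycosaminoglycan synthesis and turnover gave 1 DEG of 41, the sulfotransferase CHST2 (-1.42 ± 0.25 SE, adjusted p = 0.0092).

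**Figure D3:**
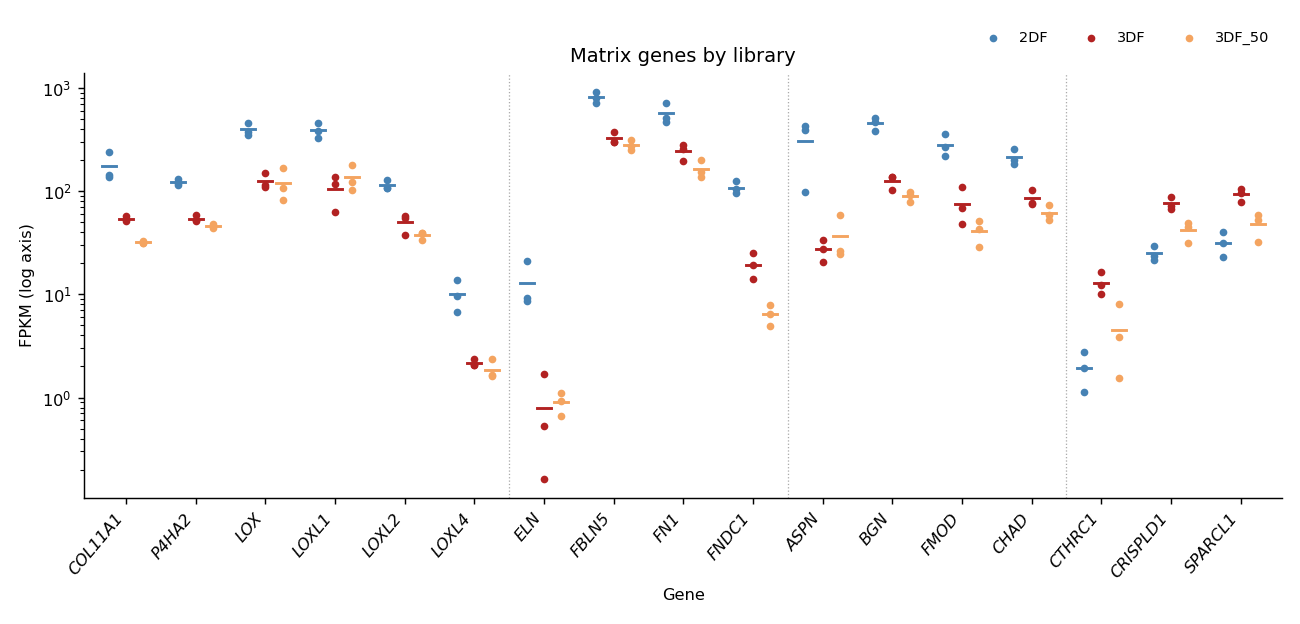
Level (FPKM, log axis) of matrix genes in each library of 2DF (blue), 3DF (red) and 3DF_50 (orange), with a short line at each mean of 3 libraries. From left to right the dotted lines divide collagen and its processing enzymes, elastic and adhesive glycoproteins, leucine-rich proteoglycans and glycoproteins that were higher in 3D. No 3DF point overlaps a 2DF point of the same gene.

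Basement membrane genes gave 4 lower and 1 higher DEG of 28. The short-chain collagen COL8A2, a component of Descemet's membrane, fell from 332, 367 and 416 to 92.0, 157 and 119 FPKM (-1.60 ± 0.21 SE, adjusted p = 0.00218). The anchoring fibril collagen COL7A1 (-1.52 ± 0.26 SE, adjusted p = 0.00818) and peroxidasin (PXDN), which cross-links type IV collagen (-1.65 ± 0.15 SE, adjusted p = 0.00052), fell in every fit. Laminin LAMA1 rose, from 0.0780, 0.149 and 0.0242 to 0.566, 0.622 and 0.489 FPKM (2.73 ± 0.46 SE, adjusted p = 0.00717), at a level far below that of the collagens.

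In the list of matrix metalloproteinases and their inhibitors 16 of 18 members had a log2 fold change below 0, the median was -0.52, and 1 was a DEG. This was the inhibitor TIMP1, at 311, 204 and 541 FPKM in 2DF and 128, 162 and 155 FPKM in 3DF (-1.24 ± 0.29 SE, adjusted p = 0.0344), which was not called without 2DF replicate 1 (-1.32, adjusted p = 0.089), 2DF replicate 3 (-0.79, adjusted p = 0.076), 3DF replicate 1 (-1.15, adjusted p = 0.079) or 3DF replicate 3 (-1.27, adjusted p = 0.073). The gelatinase MMP2, the most abundant member, was at 2163, 2318 and 2324 FPKM in 2DF and 1229, 1331 and 1537 FPKM in 3DF, a difference that passed the adjusted p but not the fold limit (-0.73 ± 0.17 SE, adjusted p = 0.0353). The membrane collagenase MMP14 was at 204.5, 182 and 135 FPKM in 2DF and 98.3, 181 and 200 FPKM in 3DF, and the conditions overlapped (-0.12 ± 0.26 SE, adjusted p = 0.819). Of 26 ADAM and ADAMTS genes tested, 4 were lower and 1 was higher. ADAM33 fell (-2.56 ± 0.41 SE, adjusted p = 0.00602) in every fit. ADAMTS15 rose from 0.0862, 0.237 and 0.0964 to 0.508, 0.785 and 1.09 FPKM (2.49 ± 0.44 SE, adjusted p = 0.00967), a call lost without 2DF replicate 1 (2.24, adjusted p = 0.0503).

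Integrins are the receptors that bind cells to matrix. Of 23 integrin and collagen receptor genes tested, ITGA11, a collagen-binding subunit of fibroblasts, fell from 115, 134 and 177 to 47.6, 65.9 and 55.7 FPKM (-1.33 ± 0.19 SE, adjusted p = 0.00343). The fibronectin receptor subunit ITGA5 was at 13.3, 14 and 16.3 FPKM in 2DF and 10.8, 12.3 and 14.8 FPKM in 3DF (-0.19 ± 0.15 SE, adjusted p = 0.487). Subunit ITGA4 rose (1.15 ± 0.24 SE, adjusted p = 0.0217), but was not called without 2DF replicate 1 (0.97, adjusted p = 0.092), 2DF replicate 3 (1.08, adjusted p = 0.088) or 3DF replicate 1 (0.97, adjusted p = 0.039). With 3DF_50 in place of 3DF ITGA4 was not called (0.37, adjusted p = 0.299), whereas ITGA11 was (-1.64, adjusted p = 7.00e-05).

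In the list of contractile cytoskeleton and focal adhesion genes 2 of 45 were DEGs, a share near the 3.78% of all genes, while 30 had a log2 fold change below 0 and the median was -0.30. Transgelin (TAGLN), an actin-binding protein of smooth muscle and myofibroblasts, fell from 0.988, 2.99 and 2.83 to 0.414, 0.306 and 0.642 FPKM (-2.32 ± 0.50 SE, adjusted p = 0.0223). The TAGLN call was lost without 2DF replicate 2 (-2.07, adjusted p = 0.0892), 2DF replicate 3 (-2.13, adjusted p = 0.0815), 3DF replicate 1 (-2.26, adjusted p = 0.0584) or 3DF replicate 2 (-2.11, adjusted p = 0.0550). The related TAGLN2 rose from 38.6, 36.5 and 58.8 to 72.1, 130 and 105 FPKM (1.20 ± 0.24 SE, adjusted p = 0.0165), and was not called without 2DF replicate 1 (1.10, adjusted p = 0.0918), 2DF replicate 2 (1.07, adjusted p = 0.0835) or 3DF replicate 2 (0.98, adjusted p = 0.0345). With 3DF_50 in place of 3DF TAGLN2 was at 0.30 (adjusted p = 0.358), whereas TAGLN was at -3.15 (adjusted p = 0.00407). Beta actin (ACTB) was at 684, 1079.8 and 916 FPKM in 2DF and 597, 777 and 544 FPKM in 3DF (-0.48 ± 0.21 SE, adjusted p = 0.216), and vimentin (VIM) at 766, 800.2 and 874 FPKM against 577, 584 and 554 FPKM (-0.50 ± 0.14 SE, adjusted p = 0.0714). The myofibroblast actin ACTA2 was below 0.6 FPKM in every library and was not tested. Genes for small GTPases and their regulators gave DEGs in both directions, with 2 higher and 4 lower of the 38 tubulin and small GTPase genes tested. TIAM1, an exchange factor that activates RAC1, rose from 4.49, 3.79 and 4.64 to 13.4, 16.2 and 14.5 FPKM (1.78 ± 0.14 SE, adjusted p = 0.000407). The endosomal GTPase RHOB fell from 176, 129 and 171 to 30.3, 62.8 and 37.9 FPKM (-1.86 ± 0.25 SE, adjusted p = 0.00255). RND3, an antagonist of ROCK1, fell from 102, 88.2 and 135 to 48.0, 31.9 and 33.4 FPKM (-1.51 ± 0.21 SE, adjusted p = 0.0025), and ARHGEF28, an exchange factor for RHOA, fell from 5.01, 4.68 and 8.46 to 1.86, 2.12 and 2.42 FPKM (-1.50 ± 0.24 SE, adjusted p = 0.00498). The calls of TIAM1, RHOB, RND3 and ARHGEF28 held in every fit that left out 1 library.

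In the list of YAP/TEAD target genes, 4 of 19 members tested were lower, none was higher and the median was -0.18. Connective tissue growth factor (CTGF, also named CCN2) fell from 91.0, 124 and 180.0 to 7.94, 12.9 and 7.10 FPKM (-3.82 ± 0.30 SE, adjusted p = 0.000407). CYR61 (CCN1), a secreted integrin ligand of the same family, fell from 844, 885 and 1148 to 155, 336 and 94.5 FPKM (-2.29 ± 0.39 SE, adjusted p = 0.00823). AMOTL2, a junction protein that binds YAP, fell from 159.7, 195 and 219 to 60.0, 82.6 and 53.9 FPKM (-1.54 ± 0.20 SE, adjusted p = 0.00199), and CCDC80, a secreted matrix protein, fell too (-1.50 ± 0.19 SE, adjusted p = 0.00186). The other 15 members tested included AXL (-0.25 ± 0.15 SE, adjusted p = 0.374) and the kinase LATS2 (-0.10 ± 0.12 SE, adjusted p = 0.672), which did not pass the test. CTGF was at 6.53 ± 0.644 FPKM in 3DF_50 and at 185 ± 89.3 FPKM in 2DC, so that it was low in both conditions within the matrix and high in both on a surface.

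Genes of the cell cycle gave shares of DEGs near that of all genes. The proliferation marker MKI67 was at most 0.0710 FPKM in any 2DF or 3DF library and was not tested. PCNA, the DNA polymerase clamp, was at 24.1, 20.1 and 22.0 FPKM in 2DF and 25.8, 20.7 and 21.8 FPKM in 3DF (0.05 ± 0.15 SE, adjusted p = 0.882). The 34 members of S phase and mitosis tested had a median of 0.04, and 1 of 26 genes of cell cycle entry was a DEG. Among genes of survival and apoptosis BCL2L11 (BIM), which promotes apoptosis, rose from 3.01, 3.30 and 3.28 to 8.31, 7.22 and 6.94 FPKM (1.23 ± 0.15 SE, adjusted p = 0.00146).

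Genes for contacts between cells changed in both directions, with 3 higher and 4 lower of 32 cadherins and gap junction genes. CDH8 fell from 11.0, 11.5 and 15.6 to 4.71, 3.96 and 3.88 FPKM (-1.60 ± 0.17 SE, adjusted p = 0.000882), and the tight junction gene CLDN1, counted here with the epithelial markers, fell from 15.6, 13.1 and 13.1 to 4.29, 3.99 and 4.64 FPKM (-1.69 ± 0.21 SE, adjusted p = 0.00199). The protocadherin PCDH18 rose from 5.02, 5.24 and 5.49 to 11.6, 11.1 and 12.3 FPKM (1.15 ± 0.12 SE, adjusted p = 0.000885). The number of neighbours per cell differed between the conditions by design, and its part in these changes was not tested. In 3DF_50, with fewer cells in the matrix, CDH8 was at 2.82 ± 0.357 FPKM and PCDH18 at 11.7 ± 2.00 FPKM.

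Guidance molecules, known from growing axons and also used in migrating cells, gave 4 higher and 2 lower DEGs of 52. Netrin 1 (NTN1) rose from 7.90, 9.74 and 5.92 to 23.2, 28.1 and 28.9 FPKM (1.77 ± 0.19 SE, adjusted p = 0.000948). The ephrin receptor EPHA5 rose from 2.44, 2.69 and 2.65 to 7.53, 6.29 and 7.54 FPKM (1.46 ± 0.13 SE, adjusted p = 0.00052) and the semaphorin SEMA6D from 2.31, 2.79 and 2.50 to 9.84, 6.16 and 7.18 FPKM (1.61 ± 0.19 SE, adjusted p = 0.00136). These calls held in every fit that left out 1 library. The netrin receptor UNC5D fell (-1.20 ± 0.26 SE, adjusted p = 0.0232), but was not called without 2DF replicate 3 (-0.86, adjusted p = 0.074) or 3DF replicate 3 (-1.14, adjusted p = 0.074).

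In the TGF-beta and BMP list, ligands and regulators of the BMP branch each changed in both directions. BMP4 rose from 4.50, 4.19 and 6.03 to 9.69, 11.0 and 11.3 FPKM (1.12 ± 0.20 SE, adjusted p = 0.00908), and GDF5 from 2.81, 1.66 and 2.03 to 4.83, 7.20 and 6.03 FPKM (1.48 ± 0.26 SE, adjusted p = 0.009). The ligand GDF7, at 0.0987, 0.175 and 0.177 FPKM in 2DF and 0.0295, 0.0382 and 0.0428 FPKM in 3DF, fell (-2.01 ± 0.44 SE, adjusted p = 0.0249). GDF7 was called in 1 of the 6 fits that left out a library, the one without 2DF replicate 1 (-2.24, adjusted p = 0.0370), and in the others its adjusted p was 0.0721 to 0.0968. Noggin (NOG), which binds and blocks BMP ligands, fell from 4.74, 5.67 and 8.76 to 1.06, 1.89 and 0.932 FPKM (-2.29 ± 0.35 SE, adjusted p = 0.00404). BMPER, another BMP-binding protein, fell from 23.5, 25.6 and 30.0 to 9.75, 13.0 and 9.43 FPKM (-1.29 ± 0.16 SE, adjusted p = 0.00199), whereas the antagonist CHRDL1 rose from 0.686, 1.42 and 1.52 to 5.35, 4.11 and 4.58 FPKM (1.96 ± 0.29 SE, adjusted p = 0.00395), so that the antagonists did not move together. The 2 accessory receptors of the list that were DEGs also parted. Endoglin (ENG) fell from 118, 127 and 168 to 29.3, 43.2 and 38.1 FPKM (-1.90 ± 0.19 SE, adjusted p = 0.000683), and betaglycan (TGFBR3) rose from 13.1, 11.0 and 11.5 to 28.7, 26.0 and 27.6 FPKM (1.22 ± 0.13 SE, adjusted p = 0.000885). The BMP target ID3 was at 40.4, 36.3 and 29.3 FPKM in 2DF and 66.9, 126 and 55.6 FPKM in 3DF (1.23 ± 0.28 SE, adjusted p = 0.0276). The ID3 call was lost without 3DF replicate 2 (0.78, adjusted p = 0.029), 2DF replicate 1 (1.34, adjusted p = 0.085), 2DF replicate 2 (1.26, adjusted p = 0.1) or 2DF replicate 3 (1.12, adjusted p = 0.11).

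Genes for 2 vasoactive peptides fell while genes for their receptors rose. Endothelin 1 (EDN1; oryCun2 chromosome 12, 6011333 to 6037477) encodes a contractile peptide and fell from 20.7, 27.9 and 77.6 to 1.52, 3.91 and 1.46 FPKM (-4.19 ± 0.55 SE, adjusted p = 0.00232). Its receptor EDNRA (chromosome 15, 17113256 to 17196606) rose from 3.03, 4.47 and 3.15 to 8.44, 8.29 and 7.40 FPKM (1.18 ± 0.20 SE, adjusted p = 0.00671). The other receptor, EDNRB, was at 7.35, 15.3 and 5.79 FPKM in 2DF and 34.0, 19.6 and 28.7 FPKM in 3DF (1.54 ± 0.34 SE, adjusted p = 0.024), a call that was lost without 2DF replicate 1 (1.38, adjusted p = 0.13), 2DF replicate 3 (1.28, adjusted p = 0.075) or 3DF replicate 1 (1.35, adjusted p = 0.052). In the same way the peptide adrenomedullin (ADM) fell from 115, 89.0 and 93.1 to 32.0, 44.8 and 30.7 FPKM (-1.46 ± 0.18 SE, adjusted p = 0.00165). Its receptor gene CALCRL (chromosome 7, 127708697 to 127804627) rose from 0.814, 1.01 and 0.744 to 9.65, 4.84 and 5.29 FPKM (2.95 ± 0.29 SE, adjusted p = 0.000644). The VEGF receptor KDR rose from 46.1, 62.4 and 49.4 to 115, 112 and 115 FPKM (1.12 ± 0.15 SE, adjusted p = 0.0024). KDR is also an endothelial marker, and 5 of the 11 markers of that list found were tested. The sialomucin EMCN rose with KDR from 4.81, 2.99 and 2.85 to 9.44, 6.83 and 6.61 FPKM (1.11 ± 0.24 SE, adjusted p = 0.0217), but was not called without 2DF replicate 2 (1.00, adjusted p = 0.0989), 2DF replicate 3 (0.97, adjusted p = 0.0878) or 3DF replicate 1 (0.92, adjusted p = 0.0368). ERG, the most abundant of the list, fell (-1.01 ± 0.15 SE, adjusted p = 0.00361). CDH5 was at 4.95, 5.25 and 6.20 FPKM in 2DF and 2.45, 4.81 and 3.23 FPKM in 3DF (-0.64 ± 0.24 SE, adjusted p = 0.154), PECAM1 was at most 0.034 FPKM, and CLDN5 and PLVAP had no count in any 2DF or 3DF library. The summed level of the vascular markers was 203 to 227 FPKM in 2DF and 194 to 211 FPKM in 3DF. Without ERG the sum was 56.3 to 70.9 FPKM and 124 to 128 FPKM. Most of that sum was KDR itself, so it restates the rise of KDR and not of the markers as a group. The part of such cells in these results was not tested. ERG was under the fold limit without 2DF replicate 2 (-0.97), 3DF replicate 1 (-0.93) or 3DF replicate 3 (-0.95). In 3DF_50 some receptors were nearer to 2DF, with EDNRA at 4.83 ± 1.12 FPKM (0.46 against 2DF, adjusted p = 0.205) and KDR at 61.1 ± 13.4 FPKM (0.23 against 2DF, adjusted p = 0.421). CALCRL stayed above 2DF there, at 3.71 ± 0.802 FPKM (2.13 against 2DF, adjusted p = 7.37e-05), and EDN1 was at 0.471 ± 0.228 FPKM.

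**Figure D4:**
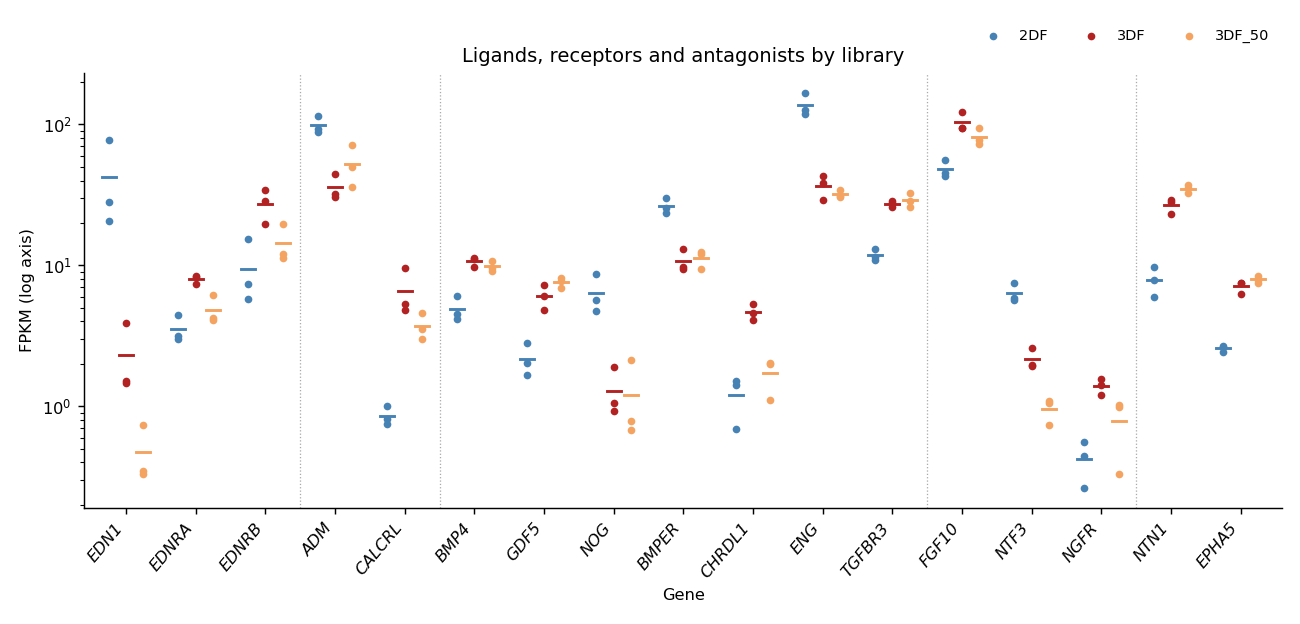
Level (FPKM, log axis) of genes for ligands, receptors and antagonists in each library of 2DF (blue), 3DF (red) and 3DF_50 (orange), with a short line at each mean of 3 libraries. From left to right the dotted lines divide endothelin genes, adrenomedullin genes, TGF-beta and BMP genes, growth and neurotrophic factor genes, and guidance genes. EDN1, ADM, NOG, BMPER, ENG and NTF3 are lower in 3DF than in 2DF and the other genes plotted are higher.

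Other growth factor genes gave 4 higher and 3 lower DEGs of 37. FGF10, a ligand made by stromal cells for epithelia, rose from 45.5, 43.1 and 56.0 to 123, 94.3 and 94.9 FPKM (1.12 ± 0.16 SE, adjusted p = 0.00361), and was under the fold limit without 3DF replicate 1 (0.97). Neurotrophin 3 (NTF3) fell from 5.91, 5.64 and 7.45 to 2.60, 1.96 and 1.93 FPKM (-1.54 ± 0.22 SE, adjusted p = 0.00333), while the neurotrophin receptor NGFR rose from 0.264, 0.558 and 0.443 to 1.43, 1.55 and 1.20 FPKM (1.73 ± 0.32 SE, adjusted p = 0.0113). NGFR is also one of the Schwann cell and melanocyte markers, and the part of such cells in its rise was not tested. FGF13, an intracellular FGF homologue, fell by 2.15 (SE 0.24, adjusted p = 0.00104). In the IGF axis 2 of 15 genes were higher and 2 were lower. The growth factor IGF1 rose from 0.115, 0.224 and 0.409 to 1.25, 0.912 and 0.592 FPKM (1.89 ± 0.42 SE, adjusted p = 0.0246), but was not called without 2DF replicate 1 (1.55, adjusted p = 0.0808), 2DF replicate 2 (1.82, adjusted p = 0.108) or 3DF replicate 1 (1.596, adjusted p = 0.0583). The binding protein IGFBP4 rose from 118, 203 and 125 to 248, 363 and 335 FPKM (1.09 ± 0.23 SE, adjusted p = 0.0213), but was not called without 2DF replicate 1 (0.94, adjusted p = 0.106), 2DF replicate 3 (0.98, adjusted p = 0.0867), 3DF replicate 2 (0.96, adjusted p = 0.0449) or 3DF replicate 3 (1.04, adjusted p = 0.0543). With 3DF_50 in place of 3DF neither was called, with IGF1 at 0.31 (adjusted p = 0.75) and IGFBP4 at 0.56 (adjusted p = 0.0926). The protease PAPPA2, which cleaves IGF-binding proteins, fell from 23.8, 19.7 and 42.0 to 5.80, 8.32 and 4.96 FPKM (-2.16 ± 0.29 SE, adjusted p = 0.0024). The secreted Wnt modulator DKK3 fell from 221, 203 and 323 to 42.5, 48.7 and 55.1 FPKM (-2.35 ± 0.20 SE, adjusted p = 0.000482) and was the only DEG among 37 Wnt genes tested.

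In the early response list 2 of 37 members were higher and 1, RHOB, was lower. DUSP6, a phosphatase that inactivates ERK, rose from 2.99, 2.62 and 3.92 to 8.13, 13.8 and 9.72 FPKM (1.74 ± 0.23 SE, adjusted p = 0.0024). SPRY4, an inhibitor of receptor tyrosine kinase signalling, rose from 18.6, 18.8 and 12.4 to 36.5, 39.0 and 40.5 FPKM (1.22 ± 0.17 SE, adjusted p = 0.00294). Of 26 cytokine and chemokine genes tested 3 were higher and none was lower. Among them TNFAIP3, an inhibitor of NF-kB signalling, rose from 3.24, 4.35 and 3.43 to 6.94, 8.18 and 8.40 FPKM (1.10 ± 0.16 SE, adjusted p = 0.00391). The pattern recognition protein PTX3 fell from 4.98, 3.40 and 5.99 to 0.522, 0.685 and 0.600 FPKM (-2.98 ± 0.28 SE, adjusted p = 0.000558) and was the only DEG of 20 complement and acute phase genes. Interferon response genes gave 1 higher DEG of 24, with a median of 0.30.

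Lipid genes were divided by role. Squalene epoxidase (SQLE), a committed step of sterol synthesis, fell from 8.48, 7.05 and 11.5 to 2.63, 2.77 and 2.65 FPKM (-1.74 ± 0.20 SE, adjusted p = 0.00127), and the sterol reductase TM7SF2 fell from 5.65, 5.80 and 6.82 to 1.91, 1.99 and 2.91 FPKM (-1.43 ± 0.23 SE, adjusted p = 0.00618). FDPS (-0.92 ± 0.16 SE, adjusted p = 0.00991), MSMO1 (-0.80 ± 0.18 SE, adjusted p = 0.032) and SREBF2, the regulator of sterol genes (-0.66 ± 0.14 SE, adjusted p = 0.0185), passed the adjusted p but not the fold limit.

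In the other direction, the cholesterol exporter ABCA1 rose from 41.4, 39.4 and 29.9 to 102, 77.4 and 100.0 FPKM (1.34 ± 0.18 SE, adjusted p = 0.0024). The fatty acid desaturase FADS2 rose from 14.5, 19.9 and 12.7 to 85.5, 92.2 and 96.0 FPKM (2.54 ± 0.18 SE, adjusted p = 0.000407) and its partner FADS1, which lies on the same scaffold, from 24.2, 27.5 and 24.2 to 54.6, 52.1 and 49.3 FPKM (1.04 ± 0.13 SE, adjusted p = 0.00157). Over the 27 members tested of the cholesterol and fatty acid list 20 had a log2 fold change below 0, the median was -0.35, 4 were lower and 3 higher. The 3 higher genes and SQLE and TM7SF2 were called in every fit that left out 1 library. Both conditions were in the same serum-free medium, and 2DC had the highest SQLE of the conditions set side by side (34.9 ± 11.2 FPKM).

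**Figure D5:**
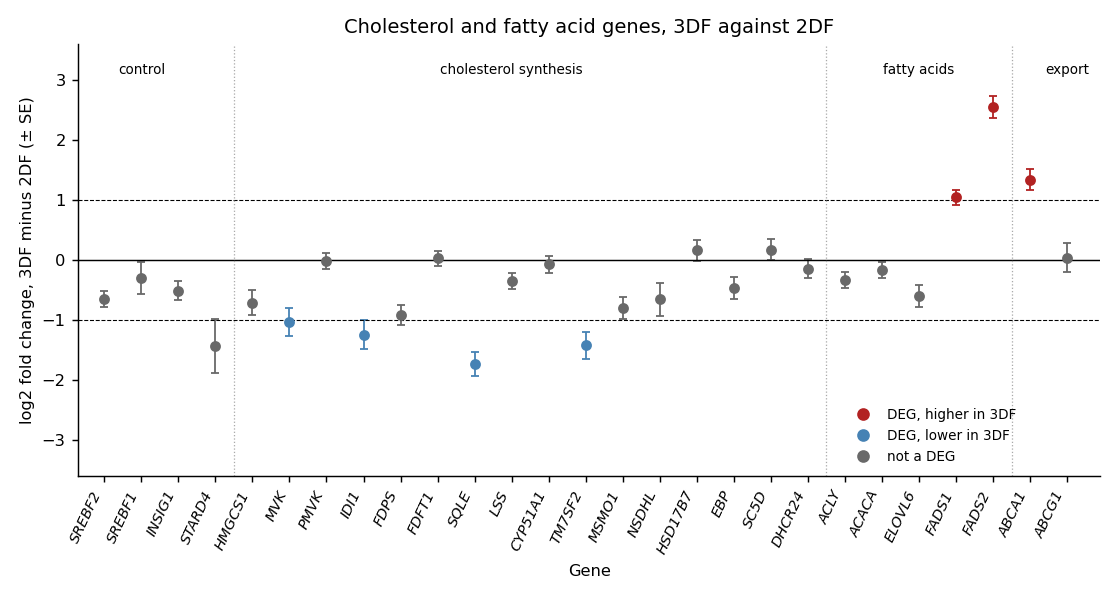
Log2 fold change (3DF minus 2DF, bars for the SE) of the 27 cholesterol and fatty acid genes tested, ordered by role, with lower DEGs in blue, higher DEGs in red and other genes in grey, and dashed lines at a log2 fold change of 1 and -1. SQLE is the lowest at -1.74 and FADS2 the highest at 2.54, and 20 of the 27 points lie below 0.

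Of 26 oxidative stress and metallothionein genes tested 2 were higher and 1 was lower, 18 had a log2 fold change above 0 and the median was 0.33. Of 37 glycolysis and hypoxia genes EPAS1 (HIF-2 alpha) rose from 13.0, 21.9 and 10.6 to 41.2, 60.8 and 45.0 FPKM (1.69 ± 0.26 SE, adjusted p = 0.00478), and the hypoxia-responsive ADM, described above, fell, so that the DEGs of this list did not share a direction. The antioxidant carrier SEPP1 (selenoprotein P) rose from 90.9, 103 and 85.0 to 313, 181 and 206 FPKM (1.33 ± 0.21 SE, adjusted p = 0.00478) and the thioredoxin inhibitor TXNIP from 9.49, 7.67 and 7.997 to 21.4, 18.2 and 15.9 FPKM (1.14 ± 0.16 SE, adjusted p = 0.00294). The extracellular superoxide dismutase SOD3 fell from 215, 264 and 290.2 to 69.0, 165 and 121 FPKM (-1.11 ± 0.27 SE, adjusted p = 0.0376). SOD3 was called without 3DF replicate 2 (-1.44, adjusted p = 0.00749) but in none of the other fits that left out a library, where its log2 fold change was -1.22 to -0.84 and, without 2DF replicate 2, its adjusted p was 0.123. The small heat shock protein CRYAB fell from 176, 179 and 211 to 49.1, 81.9 and 70.7 FPKM (-1.48 ± 0.19 SE, adjusted p = 0.00199). Of the chaperones of the endoplasmic reticulum, PDIA3 (-0.25 ± 0.15 SE, adjusted p = 0.357) and HSP90B1 (-0.33 ± 0.17 SE, adjusted p = 0.287) did not pass the test.

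Outside the lists, some genes of other roles were higher. Apolipoprotein D (APOD), a carrier of small lipids, rose from 441, 1084 and 955 to 3099.9, 2759 and 3706 FPKM (1.95 ± 0.30 SE, adjusted p = 0.00479). PLPP3, which breaks down lysophosphatidic acid, rose from 97.6, 116 and 95.2 to 353, 286 and 301 FPKM (1.61 ± 0.15 SE, adjusted p = 0.000612), and the metalloreductase STEAP4 from 83.5, 67.6 and 92.8 to 290.1, 260.1 and 262 FPKM (1.74 ± 0.16 SE, adjusted p = 0.000522). The sphingosine 1-phosphate receptor S1PR1 rose from 4.63, 4.46 and 1.90 to 14.4, 31.5 and 16.2 FPKM (2.50 ± 0.37 SE, adjusted p = 0.00382).

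Among the lower genes, CDO1, which commits cysteine to taurine and sulfate, fell from 185, 170.5 and 182 to 17.0, 31.5 and 17.5 FPKM (-3.02 ± 0.24 SE, adjusted p = 0.000407). It was at 64.8 ± 5.91 FPKM in 2DC. The vacuolar proton pump subunit ATP6V1E1 fell from 502, 378 and 562 to 252, 186 and 219 FPKM (-1.13 ± 0.18 SE, adjusted p = 0.00602). S100A10, a partner of annexin A2, was at 1941, 1704 and 1854 FPKM in 2DF and 573, 1135 and 967 FPKM in 3DF (-1.04 ± 0.22 SE, adjusted p = 0.0224), and its fold change was -0.80 (adjusted p = 0.0066) without 3DF replicate 1, which was the lowest library. The adjusted p of S100A10 was 0.095, 0.065 and 0.069 without 2DF replicates 1, 2 and 3, with fold changes of -0.99, -1.08 and -1.03. The voltage-gated potassium channel KCNA5 fell from 1.19, 3.03 and 2.95 to 0.342, 0.237 and 0.212 FPKM (-3.15 ± 0.44 SE, adjusted p = 0.00285).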

How the data were processed

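RNA-seq was compared between 3 libraries of 3DF and 3 of 2DF. The authors aligned reads to the oryCun2 rabbit genome with HISAT2 and counted them per gene with featureCounts. The authors deposited raw counts (whole reads per gene, not normalized), and the deposited FPKM values are those counts scaled by gene length and by a factor for each library. That factor was not in proportion to the library's total counts. The tables hold 23428 genes, of which 15408 have a symbol, and 700 more received one from RefSeq by gene number. Counts were tested with edgeR 4.0.16 in R 4.3.3 after TMM scaling, by the quasi-likelihood F test (two-sided), for genes that filterByExpr kept at a minimum count of 10. The SE is the log2 fold change divided by the square root of F. Adjustment covered all 13195 genes that passed the filter. Libraries come from separate experiments. Depth was 16167154 to 24224540 counts, which with 3 libraries per condition limits precision. On simulated counts for this comparison in which 200 of 13195 genes had a true log2 change of 2, edgeR recovered 91.5% with 4 false calls. No library was made to stand apart in that simulation, and recovery of changes near the limit of 1 was not tested. Alternatives were DESeq2 1.42.0, limma 3.58.1 on log2(FPKM + 1) or log2(FPKM + 0.1), other scaling, filters, thresholds and sample sets, and leaving out each library. Python 3.11.15 with pandas 2.3.3 and matplotlib 3.10.9 made tables and figures. The lists and named genes were chosen with earlier results of these data known. Named genes are the 12 DEGs per direction with the largest change (a symbol, at least 1 FPKM on average, no overlap), the 6 most abundant, up to 6 DEGs per direction of each list, keratocyte markers and genes the study discusses. List members that were not DEGs, and the values printed from each set, were picked after values were seen. In edgeR's filter a gene can pass through its higher condition, so list counts cover only members tested. Some genes, 2 members of the cholesterol and fatty acid list among them, are not reported here, and that list's counts are without them.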

Additional observations from a re-analysis of the deposited data

How the results depend on the processing

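Of the alternatives chosen, limma on log2(FPKM + 1) gave 268 DEGs, 146 higher and 122 lower, and without its filter on low values 209, 113 higher and 96 lower; its pseudocount shrinks the fold change of low genes. With adjusted p alone, without the fold limit, there were 798, 448 higher and 350 lower, and at an adjusted p of at most 0.01 there were 264, 145 higher and 119 lower. With 3DF_50 in place of 3DF there were 190 higher and 397 lower genes, and the cause was not tested. Of the named genes with a value in that fit 119 kept their status, 41 DEGs lost their call and 5 other genes gained one. With each library left out in turn, DEGs ranged from 339 to 520, higher genes from 166 (without 2DF replicate 1) to 255, and lower genes from 149 to 275, with fewer samples in each fit. Scaling by library size alone moved the median of all genes to 0.061 and gave 338 higher and 214 lower. DESeq2 gave 607 DEGs, no filter 595, all 5 conditions in the fit 660. The fit with a replicate block gave 427 DEGs, 233 higher and 194 lower, of which 414 were also called without it. Deviations of same-numbered libraries from the mean of their condition correlated at -0.094, 0.069 and -0.115. With 3 libraries per condition these values cannot show whether the samples were paired. No named DEG changed direction in any alternative that gave it a value. Named genes that were not DEGs and changed sign were XBP1 in 9 alternatives, PCNA, LUM and AQP1 in 2 each, and KERA, OGN, CHST6 and COL5A3 in 1 each; with 3DF_50 KERA was at -0.37, LUM at -0.62 and OGN at -0.27. With 3 libraries per condition no outlier can be tested. Levels under 1 FPKM rest on few reads.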

Other observations

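Some further DEGs stood out after their values were seen, outside the rule for named genes and outside the lists, and are given as values only. ADCYAP1R1, the receptor of the neuropeptide PACAP, rose from 4.55, 7.38 and 7.70 FPKM in 2DF to 33.7, 29.1 and 31.0 FPKM in 3DF (2.26 ± 0.20 SE, adjusted p = 0.000487), and the endotoxin receptor TLR4 from 2.74, 3.51 and 2.62 to 14.5, 11.7 and 14.3 FPKM (2.19 ± 0.17 SE, adjusted p = 0.000407). The thrombin receptor F2R fell from 98.7, 149.6 and 130.1 to 20.7, 29.4 and 16.8 FPKM (-2.49 ± 0.23 SE, adjusted p = 0.00052) and the adrenergic receptor ADRA1B from 4.85, 6.37 and 12.04 to 0.990, 1.54 and 0.765 FPKM (-2.81 ± 0.38 SE, adjusted p = 0.00241). In none of these did the conditions overlap, and each was called in every fit that left out 1 library. Their means in 3DF_50 were 17.2 ± 6.45 FPKM for ADCYAP1R1, 11.1 ± 0.300 for TLR4, 18.9 ± 2.09 for F2R and 0.683 ± 0.235 for ADRA1B.

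PDK4, a kinase that holds back glucose oxidation, rose from 29.8, 42.9 and 20.6 to 145, 100.1 and 98.8 FPKM (1.88 ± 0.26 SE, adjusted p = 0.00278). NR1H3, the oxysterol receptor LXR alpha, rose from 1.70, 1.54 and 1.36 to 3.87, 4.50 and 5.06 FPKM (1.55 ± 0.20 SE, adjusted p = 0.00199). The ERK-responsive genes ETV5 (1.61 ± 0.18 SE, adjusted p = 0.00103) and SPRY1 (1.38 ± 0.18 SE, adjusted p = 0.0022) rose as DUSP6 and SPRY4 did. In the early response list as a whole 21 of 37 members tested were below 0 and the median was -0.10, and ERK activity was not tested.

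Fibroblast activation protein (FAP) fell from 195, 133 and 241 to 95.4, 66.1 and 66.5 FPKM (-1.31 ± 0.23 SE, adjusted p = 0.00907), and LRRC15, a surface protein of activated fibroblasts, from 1.58, 0.621 and 1.41 to 0.0754, 0.0334 and 0.0561 FPKM (-4.38 ± 0.53 SE, adjusted p = 0.00162). The YAP partner TEAD4 fell from 6.37, 7.27 and 5.60 to 2.39, 2.11 and 1.70 FPKM (-1.63 ± 0.22 SE, adjusted p = 0.00247), and the protocadherin FAT1, an upstream member of the Hippo pathway, from 43.6, 47.7 and 56.2 to 17.9, 16.1 and 15.5 FPKM (-1.57 ± 0.15 SE, adjusted p = 0.000612).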
